A study of Homo sapiens with 16 samples.

Results

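The genes described here are 48 regulators of G2 phase, mitosis and cytokinesis. They were picked by symbol from a count table of 59428 genes, and all 48 symbols are in it. They comprise 9 genes for cyclins, CDK1 and its controllers, 6 for the polo and aurora kinases and the chromosomal passenger complex, 5 of the spindle checkpoint, 4 of anaphase onset, 6 of the centromere and kinetochore, 10 of spindle motors and spindle assembly, 5 of the central spindle and cytokinesis, and 3 for chromosome structure and transcription (TOP2A, MKI67 and FOXM1). RNA was measured in 2 lines of serous ovarian carcinoma cells, OVCAR3, which carries wild type BRCA1, and UWB1.289, in which BRCA1 is mutated. Cells of both lines spent 96 h with olaparib, an inhibitor of the PARP enzymes that act in the repair of DNA strand breaks, or with its solvent DMSO as control. The dose was the IC50 of each line, 7.5 µM for OVCAR3 cells but 3.5 µM for UWB1.289. Each of the 4 groups has 4 replicates, which makes 16 libraries in all. The lines were also grown in different media, with more serum in that of OVCAR3. The effects of BRCA1 status therefore cannot be told apart from those of the line itself, its medium and its dose. Nothing in the labels says that replicates came from separate cultures, so p-values measure only the spread between these libraries.

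Entry into mitosis is driven by CDK1 bound to a B-type cyclin. WEE1 and PKMYT1 hold this kinase inactive by phosphorylating it, and the CDC25 phosphatases remove that block. Chromosomes then attach to the spindle through their kinetochores, the spindle checkpoint delays anaphase until all are attached, and CDC20 with the anaphase-promoting complex finally marks securin (PTTG1) and cyclin B for destruction. Most of these genes are transcribed late in the cell cycle, through the MuvB complex with B-MYB and FOXM1, which acts on promoters that hold a cell cycle homology region (CHR), often together with CCAAT boxes. In a growing culture their RNA is therefore widely read as a mark of proliferation.

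The promoters of 6 genes that recur in the results are shown to make this common architecture visible. They are the B-type cyclin CCNB2 and its kinase CDK1, the spindle gene HMMR and securin PTTG1, whose olaparib effects differed between the lines, and PLK1 and PRC1, the members with the greatest fold difference between the lines together with HMMR. Sequences are from RefSeq (GRCh38.p14), 130 bases long and written 5′ to 3′ on the strand of the gene. Capitals mark the CHR, searched as TTTGAA or TTCGAA, and the CCAAT box (ATTGG on the other strand). Both motifs were searched on both strands. RefSeq gives 2 starts for CDK1 and for PTTG1, and the upstream one was used here. Each window ends 1 base before the start, except that of CDK1, which runs from 180 to 51 bases before it. The only matches found around this CDK1 start are a CHR 161 bases and a CCAAT box 150 bases before it. The 130 bases just before this start hold neither motif. Around the other start of CDK1, 3 CHR matches and 2 CCAAT boxes lie between 250 bases before and 50 after it. Around the other start of PTTG1 lie the same 3 CCAAT boxes and no match to either CHR sequence searched.
CCNB2 (chr15:59105016-59105145, plus strand): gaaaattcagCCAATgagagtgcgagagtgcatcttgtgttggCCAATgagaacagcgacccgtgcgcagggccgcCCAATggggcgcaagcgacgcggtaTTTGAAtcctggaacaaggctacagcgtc
CDK1 (chr10:60778151-60778280, plus strand): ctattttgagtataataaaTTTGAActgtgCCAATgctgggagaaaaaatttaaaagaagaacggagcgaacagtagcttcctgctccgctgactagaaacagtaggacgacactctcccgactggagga
HMMR (chr5:163460502-163460631, plus strand): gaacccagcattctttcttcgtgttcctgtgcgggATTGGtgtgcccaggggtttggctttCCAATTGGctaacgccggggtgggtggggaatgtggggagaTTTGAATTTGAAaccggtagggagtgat
PTTG1 (chr5:160421725-160421854, plus strand): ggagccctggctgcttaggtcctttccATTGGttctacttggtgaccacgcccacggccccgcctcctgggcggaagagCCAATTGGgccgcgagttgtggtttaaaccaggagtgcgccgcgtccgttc
PLK1 (chr16:23678759-23678888, plus strand): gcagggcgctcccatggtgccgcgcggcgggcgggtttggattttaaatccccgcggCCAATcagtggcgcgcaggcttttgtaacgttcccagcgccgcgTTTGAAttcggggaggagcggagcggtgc
PRC1 (chr15:90994536-90994665, minus strand): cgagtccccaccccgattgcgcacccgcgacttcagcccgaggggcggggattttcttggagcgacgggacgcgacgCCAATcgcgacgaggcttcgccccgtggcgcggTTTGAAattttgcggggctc
CCNB2 and HMMR each hold 3 CCAAT boxes in the window, and HMMR has 2 adjoining CHR elements. The PTTG1 window holds 3 CCAAT boxes and neither TTTGAA nor TTCGAA. Other forms of the CHR were not searched for. In these windows some matches adjoin or share bases, as CCAATTGG in HMMR and PTTG1 reads as a box on each strand.

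RefSeq promoters, from 250 bases before to 50 after the start, were at hand for 39 of the 48 members, and 9 had no entry (WEE1, PKMYT1, AURKA, BIRC5, BUB3, TTK, UBE2C, TPX2 and FOXM1). A CHR match, TTTGAA or TTCGAA, was found in 32 of the 39 (82.1%), against 5336 of 27305 genes (19.5%). A CCAAT box was found in 33 (84.6%), against 39.7% of all genes, and both motifs in 28 (71.8%), against 7.85%. The members without a CHR match were CCNA2, CCNB1, AURKB, PTTG1, CENPE, KIF2C and KIF20A, and of these CENPE and KIF2C had no CCAAT box either. A CHR of another form would be missed by this search. In OVCAR3 the median log2 fold change was 0.22 over the 32 members with a CHR match and 0.28 over the 7 without. It was 0.24 over the 33 with a CCAAT box and 0.10 over the 6 without. In UWB1.289 all 4 of these medians lay between -0.01 and 0.

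The libraries are of the QuantSeq type, which reads the 3′ end of each mRNA, and hold between 5599571 and 7730228 counted reads. Members had between 49 and 11952 counts in each library, apart from NUSAP1, a microtubule binding protein of the spindle, with 4 to 15. NUSAP1 was therefore not tested within UWB1.289 nor between the lines. Levels are given as CPM, the counts of a gene per 1e6 counts of its library, scaled with the TMM method over the 16 libraries, in the order of replicates 1 to 4. Gene positions are those of GENCODE 44 on GRCh38. Because reads come from 3′ ends, 10 members whose last 500 annotated bases also hold exons of another gene could take or lose reads (CCNA2, CCNF, PKMYT1, PLK1, BUB1B, SPC25, NUSAP1, KIF20A, PRC1 and FOXM1). Near-identical copies had few counts, with 6 for PTTG2, 4 for PTTG3P and 19 for KIF4B over all 16 libraries. Reads that match a member and its copy alike could have been split or dropped, so these counts do not show that the copies were silent. The epithelial markers EPCAM, KRT8, KRT18 and CDH1 and ovarian PAX8 (287 to 445 CPM in the group means) were present in both lines, while WT1 was at 121 and 75.4 CPM in OVCAR3 and had 0 counts in UWB1.289 with DMSO and 4 with olaparib. Of 9 markers of leukocytes, endothelium and fibroblasts, PTPRC reached a group mean of 7.89 CPM, and only the collagen genes COL1A1 and COL1A2, with up to 36.1 and 48.5 CPM, went above that.

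With olaparib, the RNA of many members rose in OVCAR3, each by less than 2-fold. At an adjusted p below 0.1 (edgeR's quasi-likelihood test, Benjamini-Hochberg adjustment over all genes tested), 24 of the 48 were higher and 1, WEE1, was lower. Over all 13031 genes tested, 15.5% were higher and 16% lower by the same rule. The median log2 fold change was 0.24 over the members and -0.01 over all genes tested, and 41 of the 48 members had a positive value. The 4 olaparib libraries lay above all 4 DMSO libraries for 16 members, against 12.6% of all genes tested, and below them for none, against 13.1%. The greatest rises were those of CDC25B, PKMYT1, CDK1 and UBE2C, between 0.51 and 0.62 on the log2 scale. No member changed by 2-fold, whatever its p, while 2.89% of all genes were called more than 2-fold higher and 2.33% more than 2-fold lower with an average count above 10. In bulk RNA, fewer or more cells in G2 and M phase and less or more RNA per cell cannot be told apart. Leaving out 1 library at a time, 15 of the 25 calls stood in each of the 8 fits. The other 10 (ANLN, AURKA, AURKB, ECT2, FOXM1, INCENP, KIF23, PLK1, SPC25 and WEE1) were lost in at least 1, with their direction kept. Of the 4 epithelial markers 3 fell in OVCAR3, KRT8 from 834 ± 113 to 401 ± 57.8 CPM (SD, n = 4), a log2 fold change of -1.05 (edgeR adjusted p = 2.26e-07), KRT18 from 1796 ± 68.3 to 884 ± 81.5 CPM, -1.02 (edgeR adjusted p = 2.72e-09), and EPCAM with a log2 fold change of -0.18 (edgeR adjusted p = 0.0755), while CDH1 had -0.10 (edgeR adjusted p = 0.579) and did not pass. Of the 3 ovarian markers WT1 (-0.68) and MUC16 (-0.59) fell and PAX8 had -0.06. The part of these shifts in the members' result was not tested.

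In UWB1.289 the same genes moved little. Of 47 members tested, BIRC5 rose and SPC25 and ESPL1 fell. Over all 12748 genes tested, 7.77% were higher and 6.10% lower. The median log2 fold change was 0.03 over the members and 0.00 over all genes, with 24 members positive and 23 negative. The groups did not overlap upward for BIRC5 and BUB3 (7.90% of all genes) and downward for SPC25 and NUF2 (6.84%). Again no member changed by 2-fold, where 1.93% of all genes were called beyond it upward and 0.282% downward. In this line libraries of the same replicate number deviated together. With the replicate number as a block, calls over all 12748 genes went from 990 higher and 778 lower to 1269 and 1110. Among the members, 7 were called with the block. They were BIRC5 (adjusted p = 0.0158), UBE2C (0.0883) and TPX2 (0.0592) upward, and SPC25 (0.00371), ESPL1 (0.0508), NUF2 (0.0895) and ASPM (0.0801) downward, all by edgeR. Without DMSO replicate 1 only SPC25 was called, and without olaparib replicate 2 there were 6 calls, SPC25, ESPL1, BIRC5, AURKA, TPX2 and CENPA. Over all genes, 802 were called higher and 523 lower without DMSO replicate 1, and 1056 and 865 without olaparib replicate 2. Without olaparib replicate 1, PTTG1 was called lower as well (-0.21, adjusted p = 0.0822). Scaling by library size alone shifted the split over all genes from 990 higher and 778 lower to 1180 and 604, and called BIRC5 and TPX2 upward and SPC25 downward among the members. Of the epithelial markers KRT8 (-0.30) and KRT18 (-0.40) fell here too, and ovarian MUC16 rose (0.69), while EPCAM, CDH1 and PAX8 did not pass and WT1 was too low to test. The olaparib effects on KRT8, KRT18 and MUC16 were higher in UWB1.289 than in OVCAR3, by 0.76, 0.62 and 1.28. Their part in the members' result was not tested.

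**Figure D1:**
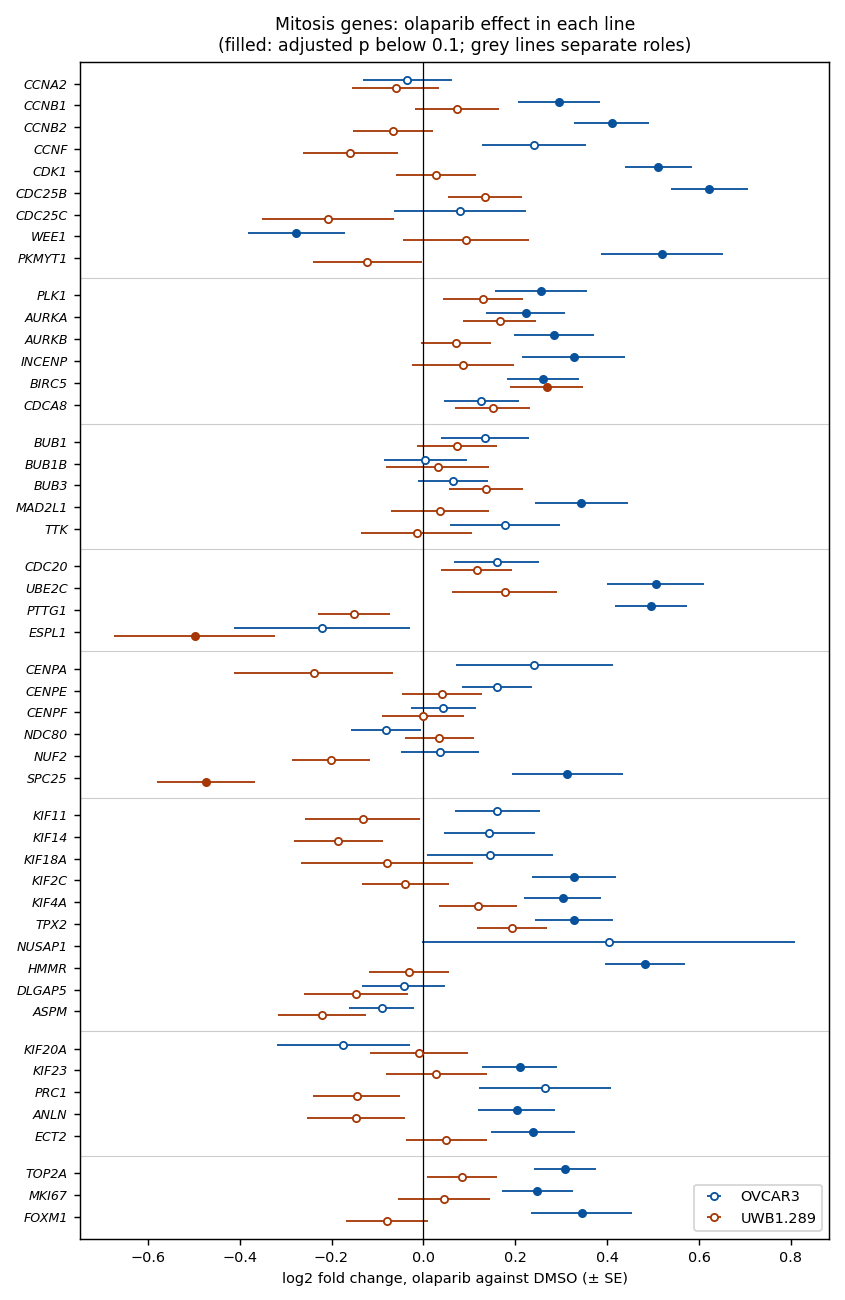
Olaparib effect on each of the 48 mitosis genes, grouped by role, as the log2 fold change against DMSO (x axis) with its standard error as a bar, in OVCAR3 (blue) and UWB1.289 (orange). Filled points passed an adjusted p of 0.1: 25 of 48 in OVCAR3, of which WEE1 alone lies left of 0, and 3 of 47 in UWB1.289.

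Tested directly, the olaparib effect was lower in UWB1.289 than in OVCAR3 for 9 of the 48 members and higher for none by edgeR at an adjusted p below 0.1. At an unadjusted p under 0.05 it was lower for 16 and higher for 1. All genes were not counted at that limit, so these numbers have no background share beside them. DESeq2 called 11 members lower and none higher, beside 972 lower and 740 higher of all 14243 genes tested. By edgeR, 5.83% of these genes had the lower and 5.09% the higher effect in UWB1.289. The 9 members were SPC25, PTTG1, PKMYT1, HMMR, CDC25B, CDK1, CCNB2, FOXM1 and KIF2C, with differences from -0.78 to -0.37 on the log2 scale. No difference reached 2-fold, where 1.66% of all genes were called beyond it downward and 1.99% upward. The median difference was -0.22 over the members and 0.01 over all genes, and 41 of the 48 members had a negative value. This comparison uses the same 16 libraries as the comparisons within each line. Of the 9, KIF2C lost its call in 11 of the 16 fits that left out 1 library (adjusted p = 0.101 to 0.188) and FOXM1 in 5, when OVCAR3 DMSO replicate 3 or 4, or OVCAR3 olaparib replicate 1, or UWB1.289 DMSO replicate 4, or UWB1.289 olaparib replicate 3 was left out (adjusted p = 0.110 to 0.175). For KIF2C the libraries were OVCAR3 DMSO replicates 1 and 4, OVCAR3 olaparib replicates 1, 2 and 3, UWB1.289 DMSO replicates 1, 2 and 4, UWB1.289 olaparib replicates 1, 3 and 4. Conversely CCNF, ANLN, PRC1, UBE2C, TOP2A and CENPA, which are not among the 9, were each called lower in at least 1 such fit, without UWB1.289 DMSO replicate 3 (PRC1, UBE2C and TOP2A), UWB1.289 olaparib replicate 1 (CCNF), 2 (CENPA), 3 or 4 (ANLN), OVCAR3 DMSO replicate 1 (CCNF) or 4 (PRC1), or OVCAR3 olaparib replicate 3 (CCNF) or 4 (PRC1 and ANLN).

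CDK1 and, of its controllers, CDC25B and PKMYT1 rose in OVCAR3, while WEE1 fell and CDC25C did not pass the test. CDK1 (chr10:60778331-60794852, plus strand), the kinase that drives entry into mitosis, had 165, 174, 160.0 and 174 CPM in the 4 OVCAR3 libraries with DMSO and 246, 246, 247 and 218 CPM in the 4 with olaparib. In UWB1.289 it had 282, 285, 220.2 and 282 CPM with DMSO and 249, 283, 276 and 280.0 CPM with olaparib. In OVCAR3 the groups did not overlap, while in UWB1.289 they did, with DMSO replicate 3 the lowest library. The log2 fold change was 0.51 (SE 0.0730, edgeR adjusted p = 3.00e-05) in OVCAR3 and 0.03 (SE 0.0878, edgeR adjusted p = 0.897) in UWB1.289, a difference between the lines of -0.48 (edgeR adjusted p = 0.00707). CDC25B (chr20:3786772-3806121, plus strand), a phosphatase that activates CDK1, had 122, 128, 132 and 113 CPM with DMSO and 194, 164, 202 and 199 CPM with olaparib in OVCAR3. Its level in UWB1.289 was 125, 145, 136 and 140.1 CPM with DMSO and 153, 156, 146 and 143 CPM with olaparib. Every olaparib library of OVCAR3 lay above the 4 DMSO libraries, the lowest being replicate 2. The fitted log2 fold change was 0.62 (SE 0.0839, edgeR adjusted p = 1.54e-05) in OVCAR3 and 0.13 (SE 0.0800, edgeR adjusted p = 0.336) in UWB1.289, with a difference of -0.49 (edgeR adjusted p = 0.00664).

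PKMYT1 and WEE1 both inhibit CDK1, and in OVCAR3 they moved in opposite directions. PKMYT1 (chr16:2968024-2980479, minus strand) had 18.2, 21.7, 17.2 and 25.8 CPM with DMSO and 30.5, 31.7, 27.8 and 28.9 CPM with olaparib in OVCAR3, with no overlap. UWB1.289 libraries had 60.1, 50.9, 41.5 and 44.6 CPM with DMSO and 50.7, 42.9, 39.9 and 47.4 CPM with olaparib, with wide overlap. Its log2 fold change was 0.52 (SE 0.133, edgeR adjusted p = 0.00682) in OVCAR3 and -0.12 (SE 0.119, edgeR adjusted p = 0.585) in UWB1.289, a difference of -0.64 (edgeR adjusted p = 0.0274). Exons of KREMEN2 overlap its 3′ end on the opposite strand, and that gene had 667 counts over the 16 libraries. WEE1 (chr11:9573670-9593457, plus strand) had 54.4, 53.7, 47.2 and 45.8 CPM with DMSO and 46.01, 36.4, 44.4 and 38.5 CPM with olaparib in OVCAR3. DMSO replicate 4 was just below the highest olaparib library there, so the groups overlapped. In UWB1.289 WEE1 had 16.6, 19.9, 15.5 and 19.9 CPM with DMSO and 16.3, 19.4, 20.2 and 20.5 CPM with olaparib. Its log2 fold change was -0.28 (SE 0.106, edgeR adjusted p = 0.0628) in OVCAR3 and 0.09 (SE 0.137, edgeR adjusted p = 0.746) in UWB1.289, and the difference between the lines, 0.37 (edgeR adjusted p = 0.202), did not pass the threshold. The fall in OVCAR3 was no longer called when DMSO replicate 1 or 2, or olaparib replicate 2 was left out (adjusted p = 0.138 to 0.195).

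Of the cyclins, the B-type cyclins rose in OVCAR3. CCNB1 had 113, 148, 114 and 115 CPM with DMSO and 147, 146, 161 and 145 CPM with olaparib in OVCAR3, where DMSO replicate 2 stood apart and caused the only overlap. The level in UWB1.289 was 119.8, 136, 109 and 114 CPM with DMSO and 111, 138, 128 and 125 CPM with olaparib. On the log2 scale the change was 0.30 (SE 0.0893, edgeR adjusted p = 0.0197) in OVCAR3 and 0.07 (SE 0.0915, edgeR adjusted p = 0.686) in UWB1.289. CCNB2 (chr15:59105126-59125045, plus strand) had 103, 102, 93.4 and 109 CPM with DMSO and 131, 148, 137 and 123 CPM with olaparib in OVCAR3, and 93.01, 99.3, 86.3 and 96.7 CPM with DMSO and 95.9, 84.01, 93.2 and 84.7 CPM with olaparib in UWB1.289. Only the OVCAR3 groups were apart. Its log2 fold change was 0.41 (SE 0.0819, edgeR adjusted p = 9.61e-04) in OVCAR3 and -0.07 (SE 0.0867, edgeR adjusted p = 0.702) in UWB1.289, a difference of -0.47 (edgeR adjusted p = 0.00959). CCNA2, the cyclin of S and G2 phase, with -0.04 and -0.06 on the log2 scale, CCNF, with 0.24 and -0.16, and the phosphatase CDC25C, with 0.08 and -0.21, did not pass the test in either line. CCNF was called higher in OVCAR3 without DMSO replicate 1 (0.33, adjusted p = 0.0557) or olaparib replicate 3 (0.31, 0.0706). The 3′ end of CCNA2 overlaps exons of EXOSC9 on the opposite strand, which had 2354 counts over the 4 libraries with DMSO and 1899 over the 4 with olaparib in OVCAR3, and 1140 and 917 in UWB1.289.

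**Figure D2:**
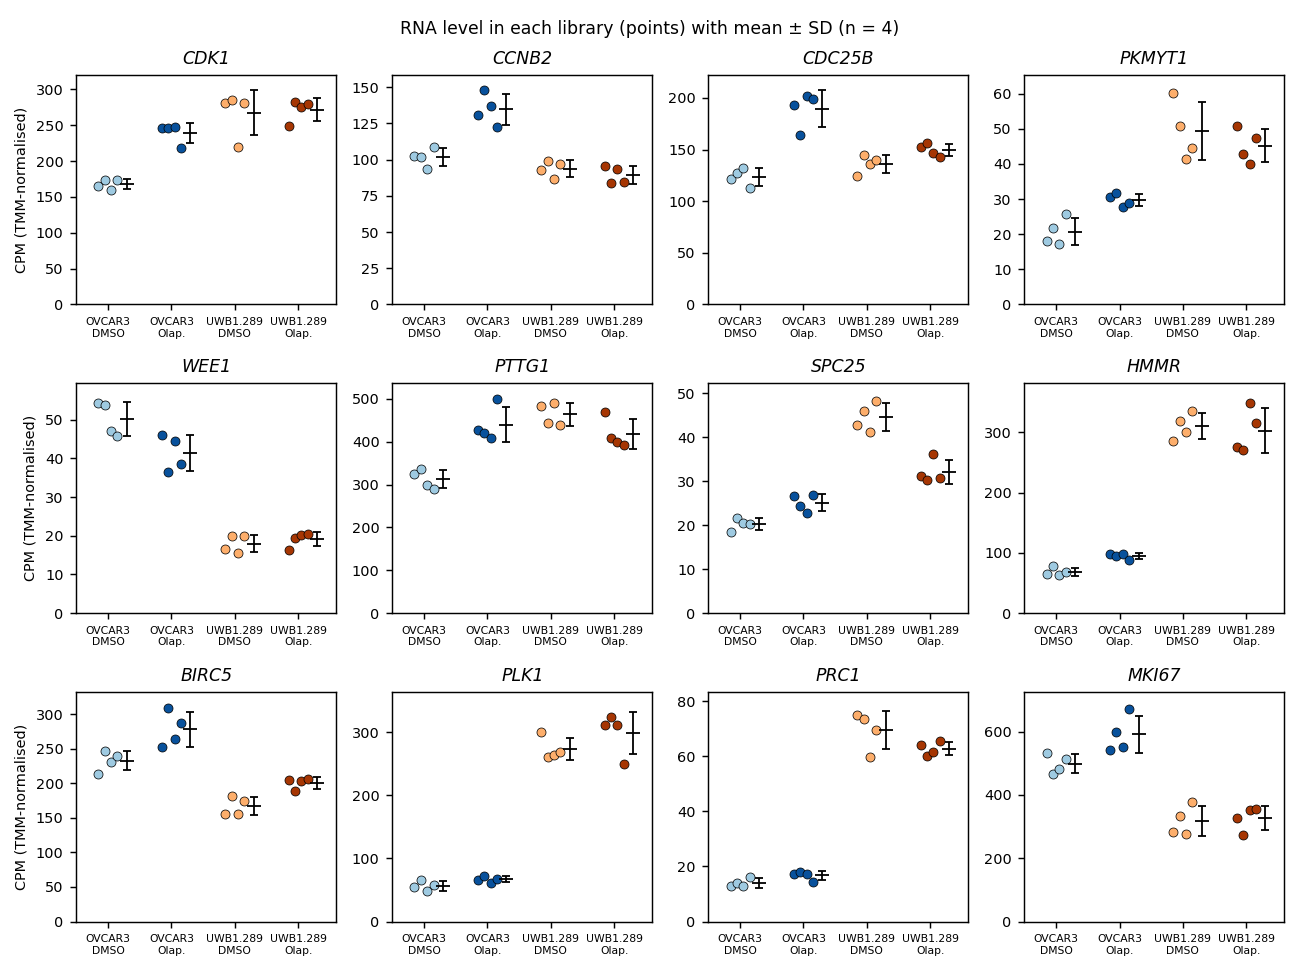
RNA level of 12 mitosis genes in each of the 16 libraries, in TMM-normalised CPM on a linear axis from 0 (y axis), by group (x axis), with the group mean and SD (n = 4) beside the points. In CDK1, CCNB2, CDC25B, PKMYT1, PTTG1, SPC25 and HMMR the OVCAR3 olaparib points lie above those with DMSO, while PLK1, HMMR and PRC1 are set apart mainly by line.

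All 6 members for the mitotic kinases and the passenger complex had a positive log2 fold change in both lines, and 5 passed the test in OVCAR3 and 1 in UWB1.289. BIRC5 (chr17:78214186-78225636, plus strand), or survivin, which brings the passenger complex to the centromere, was the member called upward in both. It had 214, 247, 231 and 239 CPM with DMSO and 252, 309, 264 and 287 CPM with olaparib in OVCAR3. For UWB1.289 the values were 156, 181, 156 and 175 CPM with DMSO and 205, 188, 203 and 207 CPM with olaparib. In neither line did the groups overlap. The log2 fold change was 0.26 (SE 0.0784, edgeR adjusted p = 0.0191) in OVCAR3 and 0.27 (SE 0.0798, edgeR adjusted p = 0.0361) in UWB1.289, with a difference of 0.01 (edgeR adjusted p = 0.992). In UWB1.289 the call was lost when DMSO replicate 1 or 3, or olaparib replicate 4 was left out (adjusted p = 0.102 to 0.116). AURKB, the kinase of that complex, had 89.3, 88.8, 81.7 and 93.8 CPM with DMSO and 95.4, 122, 104 and 108 CPM with olaparib in OVCAR3, against 271, 259.9, 245 and 257 CPM with DMSO and 296, 267, 259.6 and 261 CPM with olaparib in UWB1.289. The OVCAR3 groups were apart by a narrow margin and those of UWB1.289 overlapped. Its log2 fold change was 0.28 (SE 0.0870, edgeR adjusted p = 0.0215) in OVCAR3, not called when olaparib replicate 2 was left out (adjusted p = 0.104), and 0.07 (SE 0.0757, edgeR adjusted p = 0.625) in UWB1.289. INCENP, the scaffold of the complex, rose by 0.33 in OVCAR3 and was no longer called when DMSO replicate 3, or olaparib replicate 4 was left out (adjusted p = 0.124), with 0.09 in UWB1.289. CDCA8, with 0.13 and 0.15, passed the test in neither line.

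AURKA, the kinase of the centrosomes and spindle poles, had 205, 200.3, 197 and 211 CPM with DMSO and 205, 232, 227 and 282 CPM with olaparib in OVCAR3. In UWB1.289 it had 381, 395, 381 and 392 CPM with DMSO and 492, 381, 445 and 417 CPM with olaparib. The groups overlapped in both lines, and a single olaparib library was highest in each, replicate 4 in OVCAR3 and replicate 1 in UWB1.289. The fitted log2 fold change was 0.22 (SE 0.0866, edgeR adjusted p = 0.0680) in OVCAR3 and 0.17 (SE 0.0798, edgeR adjusted p = 0.216) in UWB1.289. The OVCAR3 call was lost when DMSO replicate 1, 2 or 3, or olaparib replicate 2 or 4 was left out (adjusted p = 0.111 to 0.200), while in UWB1.289 AURKA was called without olaparib replicate 2, with 0.22 (adjusted p = 0.0699). PLK1 (chr16:23677656-23690367, plus strand), the polo kinase of mitotic entry and exit, had 54.2, 66.2, 48.1 and 57.1 CPM with DMSO and 66.4, 72.7, 61.4 and 67.8 CPM with olaparib in OVCAR3. UWB1.289 libraries had 299.7, 261, 263 and 269 CPM with DMSO and 311, 324, 311 and 249 CPM with olaparib. Within each line the groups overlapped, through DMSO replicate 2 in OVCAR3 and olaparib replicate 4 in UWB1.289. Its log2 fold change was 0.26 (SE 0.1001, edgeR adjusted p = 0.0695) in OVCAR3, a call lost when DMSO replicate 1, 3 or 4, or olaparib replicate 1 or 2 was left out (adjusted p = 0.111 to 0.238), and 0.13 (SE 0.0867, edgeR adjusted p = 0.396) in UWB1.289.

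Among the genes of anaphase onset, UBE2C and PTTG1 rose in OVCAR3, CDC20 passed the test in neither line and ESPL1 fell in UWB1.289. UBE2C, the E2 enzyme of the anaphase-promoting complex, had 116, 128, 107 and 141 CPM with DMSO and 151, 194, 200.3 and 151 CPM with olaparib in OVCAR3, and 220.4, 252, 153 and 232 CPM with DMSO and 239, 267, 211 and 251 CPM with olaparib in UWB1.289. The OVCAR3 groups did not overlap, and in UWB1.289 DMSO replicate 3 was the lowest library. On the log2 scale the change was 0.51 (SE 0.105, edgeR adjusted p = 0.00136) in OVCAR3 and 0.18 (SE 0.114, edgeR adjusted p = 0.381) in UWB1.289. PTTG1 (chr5:160421855-160428739, plus strand), securin, had 324, 336, 299.8 and 291 CPM with DMSO and 428, 421, 409.8 and 501 CPM with olaparib in OVCAR3. The level in UWB1.289 was 485, 444, 490.1 and 439 CPM with DMSO and 470.3, 408, 401 and 393 CPM with olaparib. The OVCAR3 groups were far apart, while in UWB1.289 olaparib replicates 2, 3 and 4 lay below the DMSO libraries and replicate 1 among them. The log2 fold change was 0.50 (SE 0.0784, edgeR adjusted p = 8.96e-05) in OVCAR3 and -0.15 (SE 0.0783, edgeR adjusted p = 0.259) in UWB1.289, and the difference was -0.64 (edgeR adjusted p = 2.49e-04).

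ESPL1, or separase, the protease that PTTG1 inhibits and that cuts cohesin, had 19.7, 18.2, 14.2 and 16.6 CPM with DMSO and 8.09, 14.1, 11.9 and 14.6 CPM with olaparib in UWB1.289. In OVCAR3 it had 21.3, 22.4, 17.1 and 28.97 CPM with DMSO and 21.9, 24.8, 18.9 and 11.7 CPM with olaparib. The UWB1.289 groups overlapped through olaparib replicate 4 and DMSO replicate 3. The fitted log2 fold change was -0.50 (SE 0.174, edgeR adjusted p = 0.0779) in UWB1.289 and -0.22 (SE 0.191, edgeR adjusted p = 0.443) in OVCAR3, and the difference, -0.28 (edgeR adjusted p = 0.640), did not pass. In UWB1.289 the call was lost when DMSO replicate 1, 2 or 4, or olaparib replicate 1 or 3 was left out (adjusted p = 0.122 to 0.206). CDC20, which activates the anaphase-promoting complex, had 87.5, 112, 96.2 and 85.5 CPM with DMSO and 104, 102, 100.2 and 117 CPM with olaparib in OVCAR3, and 241, 265, 228 and 263 CPM with DMSO and 263, 284, 266 and 265 CPM with olaparib in UWB1.289. Its groups overlapped in both lines, with log2 fold changes of 0.16 (SE 0.0920, edgeR adjusted p = 0.226) and 0.12 (SE 0.0771, edgeR adjusted p = 0.396). Without DMSO replicate 2, the highest of its group, CDC20 was called in OVCAR3 with 0.24 (adjusted p = 0.0621).

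SPC25 (chr2:168834132-168913371, minus strand), a subunit of the NDC80 complex that ties kinetochores to microtubules, rose in OVCAR3 and fell in UWB1.289. It had 18.5, 21.7, 20.6 and 20.2 CPM with DMSO and 26.6, 24.3, 22.6 and 26.9 CPM with olaparib in OVCAR3. For UWB1.289 the values were 42.8, 46.05, 41.2 and 48.3 CPM with DMSO and 31.2, 30.3, 36.3 and 30.6 CPM with olaparib. The groups were apart in both lines and in opposite order. On the log2 scale the change was 0.31 (SE 0.120, edgeR adjusted p = 0.0637) in OVCAR3 and -0.47 (SE 0.107, edgeR adjusted p = 0.00575) in UWB1.289, and the difference, -0.78 (edgeR adjusted p = 0.00110), was the greatest of any member. The rise in OVCAR3 was no longer called when DMSO replicate 1, 3 or 4, or olaparib replicate 1 or 4 was left out (adjusted p = 0.108 to 0.151), while the fall in UWB1.289 and the difference stood in every such fit. NOSTRIN, whose exons overlap its 3′ end on the opposite strand, had 4 counts over the 16 libraries. The other subunits of the complex among the members did not pass the test in either line, NDC80 with -0.08 in OVCAR3 and 0.03 in UWB1.289, and NUF2 with 0.04 and -0.20. SPC24, the direct partner of SPC25 and not a member, went from 52.7 ± 2.12 to 61.96 ± 5.48 CPM (SD, n = 4) in OVCAR3 and from 69.4 ± 4.37 to 46.3 ± 10.7 CPM in UWB1.289. Its log2 fold change was 0.24 (edgeR adjusted p = 0.0657) and -0.59 (edgeR adjusted p = 0.00498), with a difference of -0.82 (edgeR adjusted p = 0.00184).

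Of the remaining kinetochore and checkpoint genes, 1 passed the test, MAD2L1 in OVCAR3. CENPA, the histone of the centromere, had log2 fold changes of 0.24 in OVCAR3 and -0.24 in UWB1.289, the motor CENPE 0.16 and 0.04, and CENPF of the outer kinetochore 0.04 and 0.00, none past the test. In OVCAR3 CENPA was called higher without DMSO replicate 2 (0.40, adjusted p = 0.0979) or olaparib replicate 4 (0.35, 0.0956), and CENPE without DMSO replicate 1 (0.23, 0.0459) or olaparib replicate 4 (0.18, 0.0766), and with the replicate block (0.0994) or library size alone (0.0983). In UWB1.289 CENPA was called lower without olaparib replicate 2 (-0.52, adjusted p = 0.0122). MAD2L1, a checkpoint protein that binds CDC20, had 49.7 ± 4.83 CPM with DMSO and 62.95 ± 6.53 CPM with olaparib in OVCAR3 (SD, n = 4), and it rose by 0.34 (edgeR adjusted p = 0.0173) on the log2 scale. In UWB1.289 its value was 0.04. The kinases BUB1, with 0.13 and 0.07, and TTK, with 0.18 and -0.01, were not called in either line, nor was BUB3, with 0.06 and 0.14. BUB1B, the checkpoint protein BUBR1, had 85.6, 73.2, 73.4 and 89.6 CPM with DMSO and 83.5, 85.5, 77.2 and 76.2 CPM with olaparib in OVCAR3, and 40.5, 44.04, 48.5 and 56.4 CPM with DMSO and 42.3, 50.2, 51.2 and 49.96 CPM with olaparib in UWB1.289. The groups within each line overlapped throughout, with log2 fold changes of 0.00 and 0.03.

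Of the 10 spindle genes, 4 rose in OVCAR3. Of the 9 tested in UWB1.289, none was called at an adjusted p below 0.1 in the main edgeR fit, which has no replicate block. At an unadjusted p under 0.05, not counted over all genes, 1 was higher and 1 lower. In that line TPX2 was called higher with DESeq2, library size alone, the block, or olaparib replicate 2 left out. ASPM was called lower there with the block or with no filter on low counts. HMMR (chr5:163460203-163491941, plus strand), which works at spindle poles, had 63.98, 77.2, 62.6 and 67.99 CPM with DMSO and 97.1, 95.1, 98.2 and 88.1 CPM with olaparib in OVCAR3. In UWB1.289 it had 286, 319, 301 and 335 CPM with DMSO and 275, 271, 349 and 316 CPM with olaparib. The rise in OVCAR3, with no overlap, was small beside the gap between the lines. The log2 fold change was 0.48 (SE 0.0867, edgeR adjusted p = 3.38e-04) in OVCAR3 and -0.03 (SE 0.0879, edgeR adjusted p = 0.878) in UWB1.289, a difference of -0.51 (edgeR adjusted p = 0.00832). KIF2C, a kinesin that shortens microtubules at centromeres, had 47.9, 56.02, 57.5 and 52.9 CPM with DMSO and 65.9, 66.3, 73.8 and 62.5 CPM with olaparib in OVCAR3, and 87.7, 92.9, 77.1 and 94.3 CPM with DMSO and 75.5, 95.6, 85.03 and 86.3 CPM with olaparib in UWB1.289. Only in OVCAR3 were the groups apart, with log2 fold changes of 0.33 (edgeR adjusted p = 0.0126) and -0.04 (edgeR adjusted p = 0.858), and the difference between the lines was -0.37 (edgeR adjusted p = 0.0948). The chromosome kinesin KIF4A rose by 0.30 and TPX2, which activates AURKA, by 0.33 in OVCAR3, with 0.12 and 0.19 in UWB1.289. The motors KIF11 (0.16 in OVCAR3 and -0.13 in UWB1.289), KIF14 (0.14 and -0.18) and KIF18A (0.14 and -0.08) did not pass the test. Nor did the spindle genes DLGAP5 (-0.04 and -0.15) and ASPM (-0.09 and -0.22), nor NUSAP1 in OVCAR3 (0.40).

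For the central spindle and cytokinesis, KIF23 (0.21 on the log2 scale), the scaffold ANLN (0.20) and the cytokinesis gene ECT2 (0.24) rose in OVCAR3. Each of these calls was lost on leaving out 1 of several libraries. That of KIF23 was lost when DMSO replicate 1, 3 or 4, or olaparib replicate 2 was left out (adjusted p = 0.104 to 0.203). That of ECT2 was lost when DMSO replicate 1, 2 or 3, or olaparib replicate 2 or 3 was left out (adjusted p = 0.123 to 0.158). That of ANLN was lost when DMSO replicate 1, 2, 3 or 4, or olaparib replicate 1, 2 or 3 was left out (adjusted p = 0.114 to 0.224). In UWB1.289 their values were 0.03, -0.15 and 0.05, none past the test. PRC1 (chr15:90966040-90995629, minus strand), which bundles the microtubules of the central spindle, had 12.7, 13.8, 13.03 and 16.4 CPM with DMSO and 17.4, 18.1, 17.2 and 14.5 CPM with olaparib in OVCAR3. UWB1.289 libraries had 74.9, 73.6, 59.9 and 69.7 CPM with DMSO and 64.1, 60.2, 61.4 and 65.4 CPM with olaparib. The groups overlapped in both lines, in OVCAR3 only through replicate 4 of each group, with log2 fold changes of 0.27 (SE 0.144, edgeR adjusted p = 0.196) and -0.14 (SE 0.0948, edgeR adjusted p = 0.388). The kinesin KIF20A had -0.17 in OVCAR3 and -0.01 in UWB1.289 and was not called. Exons of CDC23, with 2994 counts over the 16 libraries, overlap its 3′ end on the opposite strand. The genes ERN2 and PRC1-AS1, which overlap PLK1 and PRC1 in this way, had 9 counts each.

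TOP2A, MKI67 and FOXM1 rose in OVCAR3. TOP2A, the topoisomerase that untangles replicated chromosomes, had 1080.2, 1053, 1016 and 1039.5 CPM with DMSO and 1264, 1289.7, 1201 and 1421 CPM with olaparib in OVCAR3. The level in UWB1.289 was 1429, 1549.7, 1292 and 1578 CPM with DMSO and 1618, 1509.7, 1574 and 1491 CPM with olaparib. The OVCAR3 groups were apart and those of UWB1.289 overlapped, with log2 fold changes of 0.31 (SE 0.0670, edgeR adjusted p = 0.00196) and 0.08 (SE 0.0760, edgeR adjusted p = 0.551). MKI67, the proliferation antigen that coats mitotic chromosomes, had 532, 466, 483 and 514 CPM with DMSO and 543, 598, 551 and 672 CPM with olaparib in OVCAR3, and 282, 333, 278 and 378 CPM with DMSO and 326, 273, 353 and 357 CPM with olaparib in UWB1.289. Again only the OVCAR3 groups were apart, by a narrow margin, with log2 fold changes of 0.25 (SE 0.0773, edgeR adjusted p = 0.0238) and 0.05 (SE 0.1001, edgeR adjusted p = 0.842). FOXM1, the transcription factor that drives many of the other members, had 59.7, 54.4, 46.9 and 47.2 CPM with DMSO and 80.05, 61.7, 62.7 and 59.2 CPM with olaparib in OVCAR3. For UWB1.289 the values were 62.9, 62.7, 62.1 and 63.6 CPM with DMSO and 63.2, 59.1, 55.2 and 60.1 CPM with olaparib. Olaparib replicate 1 was the highest library in OVCAR3, and replicate 4 lay just below the highest DMSO library. The fitted log2 fold change was 0.34 (SE 0.110, edgeR adjusted p = 0.0266) in OVCAR3, lost when DMSO replicate 3, or olaparib replicate 1 was left out (adjusted p = 0.10 to 0.126), and -0.08 (SE 0.0893, edgeR adjusted p = 0.644) in UWB1.289, with a difference of -0.42 (edgeR adjusted p = 0.0691). Exons of ITFG2, with 1003 counts over the 16 libraries, overlap its 3′ end on the opposite strand.

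Summed up per library, the mean log2 CPM over the 48 members was 6.23 ± 0.0513 with DMSO and 6.43 ± 0.0195 with olaparib in OVCAR3 (SD, n = 4). In UWB1.289 it was 6.62 ± 0.0816 with DMSO and 6.60 ± 0.0473 with olaparib. The 4 olaparib libraries of OVCAR3 lay between 6.41 and 6.46, above its DMSO libraries (6.16 to 6.28) and below all 8 libraries of UWB1.289, which began at 6.51. Members made up 0.619% to 0.907% of the counted reads of a library. Across the 47 members tested in both lines, the log2 fold changes of the lines had a Pearson r of 0.230 and a Spearman correlation of 0.193. Across the 11670 genes tested in both lines, these were 0.371 and 0.321. Of the 47, 22 were positive in both lines, 5 negative in both, 18 positive in OVCAR3 and negative in UWB1.289, and 2 the reverse. The olaparib comparisons of the lines share no library. These values are across genes, which are not independent replicates.

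**Figure D3:**
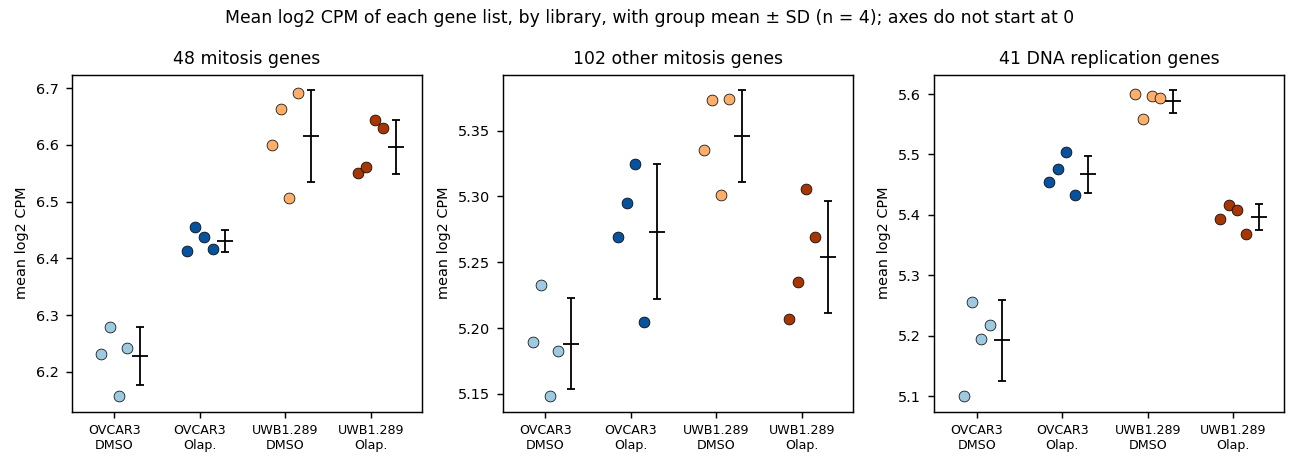
Mean log2 CPM per library (y axis, which does not start at 0) over the 48 mitosis genes, 102 other mitosis genes and 41 DNA replication genes, by group (x axis), with the group mean and SD (n = 4). With olaparib the 3 means were higher in OVCAR3, from 6.23 to 6.43 for the mitosis genes, while in UWB1.289 the mitosis genes stayed near 6.6 and the replication genes went from 5.59 to 5.40.

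Other genes of mitosis and of DNA replication were looked up for comparison. Of 102 other mitosis genes (subunits of the anaphase-promoting complex, condensin and cohesin, further kinetochore and spindle genes, and the MuvB, E2F and pocket proteins), 99 were tested. In OVCAR3, 25 were higher and 2 lower, beside 15.5% and 16% of all genes, with a median log2 fold change of 0.11. In UWB1.289, 1 was higher and 10 lower, beside 7.77% and 6.10% of all genes, with a median of -0.08. Those 11 calls became 17 with the replicate block, where calls over all genes went from 990 higher and 778 lower to 1269 and 1110. The 11 became 6 without DMSO replicate 2, and 7 without DMSO replicate 4, olaparib replicate 2 or olaparib replicate 4. Over all genes, 802 were called higher and 515 lower without DMSO replicate 2, and 824 and 546 without DMSO replicate 4. Without olaparib replicate 2 they were 1056 and 865, and without olaparib replicate 4 they were 738 and 519. The greatest rises in OVCAR3 were those of MYBL2, which encodes B-MYB, with 0.75 (edgeR adjusted p = 8.18e-06), and of MASTL, the greatwall kinase, with 0.71 (edgeR adjusted p = 3.21e-04). The cohesin subunit STAG1, with -0.93 (edgeR adjusted p = 3.01e-06), and the scaffold of the anaphase-promoting complex ANAPC1, with -0.46 (edgeR adjusted p = 0.0302), fell. In UWB1.289 MASTL rose as well, by 0.61 (edgeR adjusted p = 0.00887), and SPC24 and STAG1, with -0.46 (edgeR adjusted p = 0.0239), gave the greatest falls. The difference between the lines was called negative for 19 of the other mitosis genes and positive for 2, beside 5.83% and 5.09% of all genes. The 2 were ANAPC1 with 0.56 (edgeR adjusted p = 0.0863) and STAG1 with 0.46 (edgeR adjusted p = 0.0970). Each of these 2 calls was lost in 12 of the 16 fits that left out 1 library, with adjusted p up to 0.172 for ANAPC1 and 0.205 for STAG1. That of ANAPC1 stood only without replicate 1 of UWB1.289 DMSO, UWB1.289 olaparib or OVCAR3 DMSO, or OVCAR3 olaparib replicate 3, and that of STAG1 only without UWB1.289 DMSO replicate 4, UWB1.289 olaparib replicate 2, OVCAR3 DMSO replicate 3 or OVCAR3 olaparib replicate 4. The greatest negative differences were those of SPC24 and of the centromere gene CENPW, -0.78 (edgeR adjusted p = 0.00180).

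Of 41 DNA replication genes, 18 were higher and none lower in OVCAR3, beside 15.5% and 16% of all genes, with a median log2 fold change of 0.23, and none was higher and 12 lower in UWB1.289, beside 7.77% and 6.10%, with a median of -0.19. The other 23 in OVCAR3 and 29 in UWB1.289 did not pass the test. At an unadjusted p under 0.05, edgeR gave 19 higher and 0 lower in OVCAR3 and 0 higher and 16 lower in UWB1.289. All genes were not counted at that limit, so these numbers have no background share beside them. DESeq2 called 17 higher and 0 lower in OVCAR3, beside 1909 and 1857 of all 13031 genes. In UWB1.289 DESeq2 called 0 higher and 12 lower, beside 927 and 717 of all 12748. Without olaparib replicate 4 the edgeR count in UWB1.289 was 7, beside 738 higher and 519 lower of all genes. The greatest rises in OVCAR3 were those of cyclin E1, CCNE1, with 0.96 (edgeR adjusted p = 7.54e-08), and of the origin recognition subunit ORC6, with 0.75 (edgeR adjusted p = 5.59e-04). GINS2 of the replicative helicase, with -0.50 (edgeR adjusted p = 0.0121), and POLA1, the catalytic subunit of the primase-polymerase, with -0.44 (edgeR adjusted p = 0.0532), gave the greatest falls in UWB1.289. The call of POLA1 was lost when DMSO replicate 3 or 4, or olaparib replicate 2 or 4, was left out (adjusted p = 0.119 to 0.162). The direct test gave a negative difference for all 41, past the threshold for 21, where it was called negative for 5.83% of all genes. The median difference was -0.48, beside -0.22 over the members and 0.01 over all genes. CDT1, which loads the helicase, had -1.03 (edgeR adjusted p = 1.44e-05), and CCNE1 had -0.84 (edgeR adjusted p = 5.39e-05).

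Without drug, the mitosis genes were on the whole higher in UWB1.289, but with members on both sides. In the DMSO libraries 28 of 47 tested members were higher in UWB1.289 and 11 lower. Over all 13366 genes tested, 39.8% were higher and 40.1% lower, so a call between the lines was common for any gene. The median log2 difference was 0.41 over the members and -0.02 over all genes. The libraries of the lines did not overlap for 26 members upward (34.4% of all genes) and 10 downward (35.0%). More than 2-fold with an average count above 10, 10 members were higher (18.7% of all genes) and 1 lower (19.7%). Apart from ESPL1, not called when OVCAR3 DMSO replicate 4 was left out (adjusted p = 0.165), each of the 39 calls stood without any 1 library. This comparison shares its DMSO libraries with those of olaparib.

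**Figure D4:**
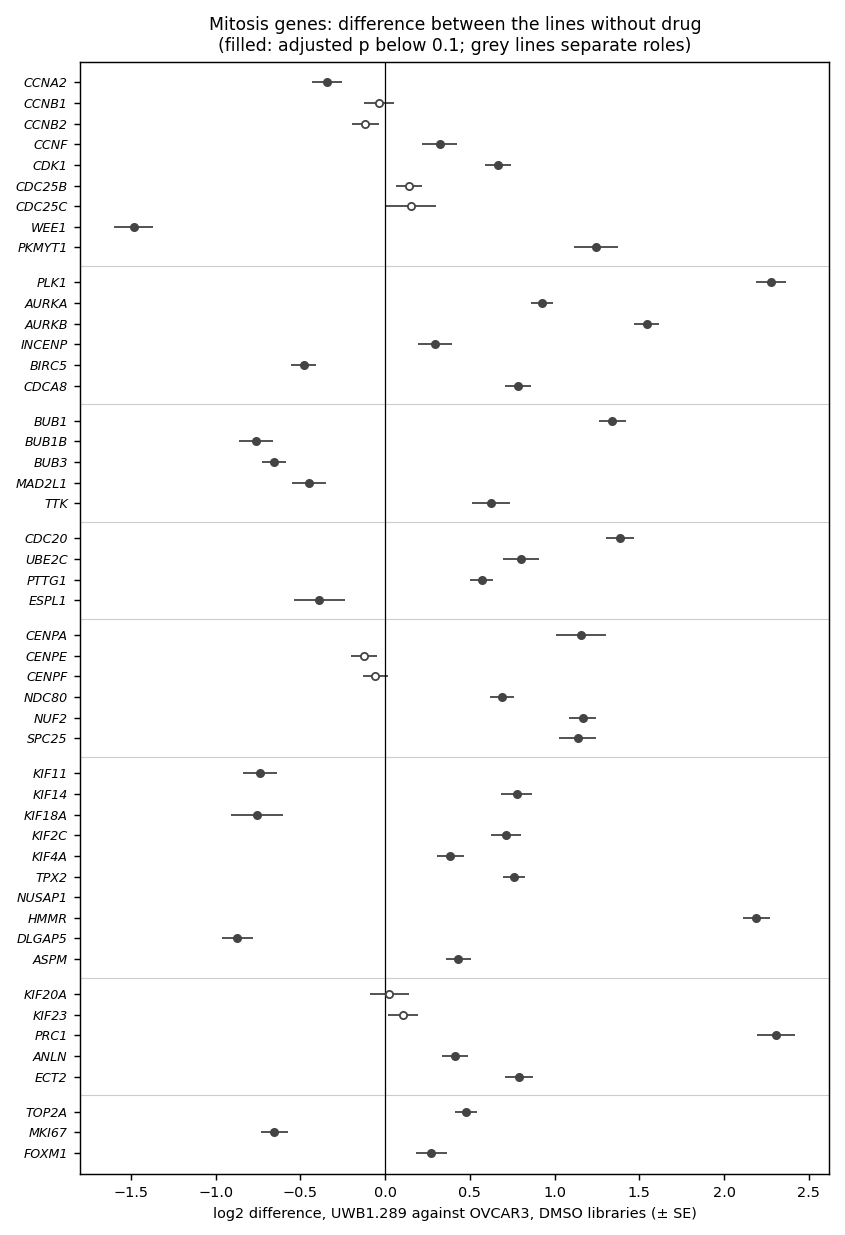
Difference between the lines without drug for 47 mitosis genes, as the log2 fold difference of UWB1.289 against OVCAR3 in the DMSO libraries (x axis) with its standard error as a bar. Filled points passed an adjusted p of 0.1, and PRC1, PLK1 and HMMR lie beyond 2 while WEE1, at -1.48, is the lowest. NUSAP1 was not tested.

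The 3 greatest differences were above 4-fold. PRC1 differed by 2.31 (SE 0.114, edgeR adjusted p = 2.18e-17), a 4.95-fold higher level in UWB1.289, PLK1 by 2.28 (SE 0.0872, edgeR adjusted p = 3.59e-20), 4.85-fold, and HMMR by 2.19 (SE 0.0807, edgeR adjusted p = 1.44e-20), 4.56-fold. In the DMSO levels given with each of these genes, no library of one line reached the range of the other. Exons of a gene without a symbol overlap the 3′ end of PRC1 on the same strand, so reads there could belong to either. AURKB followed with 1.54 (SE 0.0738, edgeR adjusted p = 8.95e-18), and the others beyond 2-fold were CDC20 (1.39), BUB1 (1.34), PKMYT1 (1.24), NUF2 (1.16), CENPA (1.16) and SPC25 (1.14). Of the kinase and passenger genes, 5 of 6 were thus higher in UWB1.289, while BIRC5 was lower with -0.48. Smaller differences in the same direction were those of AURKA (0.93), CDK1 (0.67), TOP2A (0.48) and FOXM1 (0.27).

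Among the members lower in UWB1.289, WEE1 stood out with -1.48 (SE 0.115, edgeR adjusted p = 1.02e-12), a level 0.358 of that in OVCAR3. With PKMYT1 higher by 1.24, the kinases that inhibit CDK1 differed in opposite directions between the lines. DLGAP5, a microtubule binding protein of the spindle, had 137, 138, 129 and 144 CPM in OVCAR3 with DMSO and 60.7, 69.7, 85.1 and 84.1 CPM in UWB1.289 with DMSO. The libraries were apart, and the fitted difference was -0.87 (SE 0.0908, edgeR adjusted p = 6.22e-10). KIF18A, a kinesin that dampens chromosome movements, had 21.2, 19.3, 20.7 and 24.2 CPM in OVCAR3 and 13.9, 10.8, 10.2 and 15.4 CPM in UWB1.289. Its libraries were apart too, with -0.76 (SE 0.151, edgeR adjusted p = 4.93e-05). BUB1B, whose levels are given above, differed by -0.76 (SE 0.1002, edgeR adjusted p = 5.82e-08). It shares its side with BUB3 (-0.66) and MAD2L1 (-0.45), while BUB1 and TTK (0.62) were higher in UWB1.289, so the checkpoint genes were split 2 to 3. KIF11, the motor that separates the spindle poles, was lower as well (-0.74), as were MKI67 (-0.65), CCNA2 (-0.34) and ESPL1 (-0.39). The 8 members that did not pass were CCNB1 (-0.04), CCNB2 (-0.12), CDC25B (0.14), CDC25C (0.15), CENPE (-0.12), CENPF (-0.06), KIF20A (0.03) and KIF23 (0.11). Of these, CDC25B was called higher without UWB1.289 DMSO replicate 1 or 3 or OVCAR3 DMSO replicate 3, KIF23 higher without UWB1.289 DMSO replicate 3, and CCNB2 and CENPE lower without OVCAR3 DMSO replicate 3, CENPE also without OVCAR3 DMSO replicate 2 (adjusted p = 0.0306 to 0.0972). With all libraries kept, CDC25B was also called higher by DESeq2 and with its size factors in edgeR. CCNB2 and CENPE were also called lower with library size alone. The other 13 called members (CCNF, INCENP, CDCA8, UBE2C, PTTG1, NDC80, KIF14, KIF2C, KIF4A, TPX2, ASPM, ANLN and ECT2) were higher in UWB1.289, by between 0.30 and 0.80 on the log2 scale.

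The other mitosis genes were also split between the lines, with 45 of 99 higher and 28 lower in UWB1.289 and a median of 0.16. Over all genes tested, 39.8% were higher and 40.1% lower. The condensin subunit NCAPD3, with 2.14 (edgeR adjusted p = 5.78e-15), and the spindle gene TACC3, with 1.81 (edgeR adjusted p = 8.69e-19), were highest in UWB1.289, and the cohesin subunit SMC1A, with -2.20 (edgeR adjusted p = 2.18e-22), and the kinase PBK, with -1.62 (edgeR adjusted p = 1.36e-14), lowest. Of the replication genes 28 of 41 were higher and 7 lower, beside the same 39.8% and 40.1% of all genes, with a median of 0.46. CDT1 (2.06) and the clamp loader subunit RFC4 (1.44) were highest, and the helicase subunit MCM2 (-0.77) was among those lower.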

How the data were processed

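Total RNA of the 16 samples (4 per group) was sequenced as QuantSeq 3′ mRNA libraries. The deposited file holds raw counts per gene. Per the labels and the submitters' processing notes, the authors trimmed reads with BBDuk, aligned them with STAR 2.7.9a to hg38 and counted them with featureCounts 2.0.0 over GENCODE 38. Strand and multi-mapping settings are not given in the sources used here, so reads of overlapping genes, antisense ones included, could be assigned to either, and reads of near-identical copies could be split or dropped. The 16 libraries held 5599571 to 7730228 counts. No pair of libraries of a group was identical (24 pairs, at least 3.03 chi-square units per gene).

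The members and the comparison lists were chosen with earlier results of these data known, so no list was tested as a whole. Each comparison was fitted on its own libraries (all 16 for the difference between lines) with edgeR 4.0.16 in R 4.3.3, with TMM scaling, filterByExpr, the quasi-likelihood test and Benjamini-Hochberg adjustment over all genes tested, at 0.1. The study's further limits, more than 2-fold and an average normalised count above 10, were applied separately. CPM levels share TMM factors over the 16 libraries, so ratios of printed levels can differ slightly from fitted fold changes. Log2 CPM used a prior count of 2. The code was tested on simulated counts. Values per library were given for 10 anchor genes (CCNB1, CDK1, PLK1, AURKA, AURKB, CDC20, FOXM1, MKI67, TOP2A and WEE1) and, in each comparison, for the 4 members with the greatest called increase and the 4 with the greatest called decrease, and from each comparison list the 2 with the greatest called change each way were named, except 1 that is not reported here. CCNB2 and KIF2C fall outside that rule and were described in full after their values were seen, as was the choice of promoters to print. Other members were named to account for each.

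Within UWB1.289, the deviations of same-numbered DMSO and olaparib libraries from their group means correlated over 9143 genes in all 4 pairs (r = 0.134 to 0.248), so a fit with the replicate number as a block was reported beside the unblocked one. The alternatives were DESeq2 1.42.0, its size factors, library size alone, no filter on low counts, all 16 libraries in one fit, a threshold of 0.05, another prior count, the block, and each library left out. Counts for the comparison lists under them were added after seeing the data.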

Additional observations from a re-analysis of the deposited data

Results flagged for a closer look

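In 8 of 92 groups of 4 libraries (22 members named by the rule and the members' mean level, in 4 groups each), 1 library stood further from the others than the 95% limit of Dixon's test. Chance flags about 1 in 20 groups. CCNB1 had 147.59 CPM in OVCAR3 DMSO replicate 2, against 112.92 to 115.18 in the others of that group, and 161.33 CPM in OVCAR3 olaparib replicate 3, against 144.88 to 146.73. CDK1 had 218.48 CPM in OVCAR3 olaparib replicate 4, against 245.52 to 246.9, and 220.25 CPM in UWB1.289 DMSO replicate 3, against 281.59 to 285.28. FOXM1 had 80.048 CPM in OVCAR3 olaparib replicate 1, against 59.212 to 62.651. In the olaparib libraries of UWB1.289, BUB1B had 42.276 CPM in replicate 1, against 49.96 to 51.178, CDC20 had 284.08 CPM in replicate 2, against 263.07 to 266.0, and SPC25 had 36.258 CPM in replicate 3, against 30.259 to 31.212.

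For 9 members the olaparib effect differed between the lines by the direct test in edgeR (adjusted p below 0.1). The log2 differences, UWB1.289 minus OVCAR3, were -0.78 for SPC25, -0.64 for PTTG1, -0.64 for PKMYT1, -0.51 for HMMR, -0.49 for CDC25B, -0.48 for CDK1, -0.47 for CCNB2, -0.42 for FOXM1 and -0.37 for KIF2C.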

How the results depend on the processing

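Counts of called members kept within 1.5 times the reported ones under DESeq2, its size factors, library size alone, no filter on low counts, all 16 libraries in one fit and a threshold of 0.05, in each comparison where these were run. Requiring also 2-fold and an average count above 10 left 0 members in OVCAR3, 0 in UWB1.289, 11 between the lines and 0 for the difference between the olaparib effects, since nearly all member changes are smaller than that. With the replicate block the count in UWB1.289 went from 3 to 7. Over all genes the calls in that line went from 990 higher and 778 lower to 1269 and 1110. The block moved no other count of called members by over 1.5 times. In OVCAR3 (r = 0.0578 to 0.184) and between the lines (r = -0.00714 to 0.0278) the correlation of same-numbered libraries was not above 0.1 in every pair, as it was in UWB1.289. In OVCAR3 all 4 were positive and 3 of 4 libraries correlated best with their own number, as in UWB1.289. The block gave 26 calls in place of 25 in OVCAR3, where all genes went from 2022 higher and 2083 lower to 2105 and 2191. Leaving out 1 library gave 17 to 24 called members in OVCAR3, 1 to 6 in UWB1.289, 38 to 42 between the lines and 7 to 12 for the difference. Over all genes these fits called 1687 to 2214 higher and 1706 to 2236 lower in OVCAR3. In UWB1.289 they called 738 to 1056 higher and 494 to 865 lower. Between the lines it was 5273 to 5388 and 5318 to 5465, and for the difference 549 to 766 and 685 to 935. The members' median log2 fold change ranged from 0.21 to 0.25, -0.03 to 0.04, 0.39 to 0.44 and -0.26 to -0.18 in the same order.

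Among the members set out by the naming rule, signs changed for these values, none of them called, on leaving out 1 library, and the cause was not tested. In UWB1.289, MKI67 ranged from -0.014 to 0.14 and was negative without DMSO replicate 1, DMSO replicate 3 or olaparib replicate 4, and CDK1 ranged from -0.056, without DMSO replicate 3, to 0.070. Between the lines CCNB1 ranged from -0.086 to 0.060 and was positive without UWB1.289 DMSO replicate 3 or 4, or OVCAR3 DMSO replicate 2. The difference between the olaparib effects ranged from -0.12 to 0.040 for AURKA, positive without UWB1.289 olaparib replicate 2 or OVCAR3 olaparib replicate 4, and from -0.13 to 0.0081 for CDC20, positive without the latter. Other members that were not called crossed 0 as well, such as NUSAP1, whose low counts gave a difference from -0.50 to 0.21, and KIF18A in UWB1.289, from -0.18 to 0.056. The fall of ESPL1 in UWB1.289 was also lost with library size alone (edgeR adjusted p = 0.106) and with all 16 libraries in one fit (0.133). The difference between the olaparib effects of KIF2C was also lost with library size alone and with no filter on low counts. In OVCAR3 the rises of ANLN and KIF23 were also lost with no such filter and with all 16 libraries in one fit. That of SPC25 in OVCAR3 was also lost with no such filter. The differences between the olaparib effects of STAG1 and ANAPC1 were lost without a filter on low counts (0.237 and 0.269), and that of STAG1 with DESeq2 size factors (0.110). Apart from NUSAP1, the lowest count of a member in a library was 49, which limits how small a change could be called.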
